A study of Mus musculus with 12 samples.

Results

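The genes described here are 9 mouse genes of the GDNF pathway, named for glial cell line-derived neurotrophic factor. They are the 4 co-receptor genes Gfra1, Gfra2, Gfra3 and Gfra4, the receptor tyrosine kinase gene Ret, and the transcription factor genes Etv5, Etv4, Bcl6b and Lhx1. They were chosen by symbol, and each matched 1 row of a deposited table of 55487 Ensembl genes. All 9 passed the filter on low values (10 or more normalized counts in 3 or more libraries), which left 22384 genes to be tested.

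GDNF is secreted in the testis by Sertoli and peritubular cells. It binds a membrane-anchored co-receptor of the GFRA family, and the pair then engages RET, which signals through the RAS-ERK, PI3K-AKT and SRC kinase routes. In cultured spermatogonial stem cells this signal sustains self-renewal, and Etv5, Bcl6b and Lhx1 are known there as genes whose transcripts depend on GDNF. Etv4 and Etv5 are related ETS factors known to act downstream of RET, and of FGF receptors, in other tissues.

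Messenger RNA was sequenced in 12 libraries of male germ cells (gonocytes) of mice carrying Mvh-Venus, a transgene that makes germ cells fluorescent. Each of 4 stages had 3 libraries: E13.5 and E16.5 in the embryo, P0 at birth and P3 on the third postnatal day. The libraries are called here by the numbers 1, 3 and 4 of the table's column heads. In mice, male germ cells divide at about the first of these stages, rest in mitotic arrest through late fetal life and resume division after birth. The labels disagree on genotype: titles and source names give wild type (WT) throughout, whereas the genotype tag gives Morc1 (+/-) at E13.5 and P0 and Morc1 (-/-) at E16.5 and P3. Samples were grouped by stage alone, so in every comparison of consecutive stages a genotype difference, were the tag right, cannot be told apart from stage. Only P0 against E13.5 and P3 against E16.5 stay within a tag. Morc1 averaged 1697 normalized counts at E13.5 and 31378 at E16.5, then 7496 at P0 and 10880.5 at P3. Counts summed over a whole gene cannot decide its genotype, which was not tested. Strain and the number of animals behind a library are not given, and p-values measure only the spread between these samples, which may be technical.

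Each library held 40946616 to 51533747 reads assigned to genes. A normalized count is the read count of a gene divided by the size factor of its library. The 6 germ cell markers were Ddx4, Dazl, Mael, Dnd1, Tdrd1 and Dppa3. Per library they summed to 322613 to 337136 at E13.5 and 247908 to 272255 at E16.5. Under these size factors the sums were lowest at P0, at 133883 to 142362, and were 226326 to 244145 at P3. The size factors were themselves largest at P0, at 1.840 to 2.072, against 0.988 to 1.032 at P3. Normalized counts summed over all genes were likewise lowest at P0. Whether the germ cell markers made up a smaller share of the P0 libraries was not tested. None of the 6 was at or under 3 reads throughout a stage. The 7 Sertoli cell markers summed to 1370.2 to 2129 at E13.5 and 2873 to 5998 at E16.5, then 10959 to 20758 at P0 and 4444 to 6336 at P3. In bulk RNA, fewer cells that express a gene and less RNA per cell cannot be told apart.

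By limma's F-test over the 4 stages all 9 genes differed (adjusted p at most 9.95e-12 by the Benjamini-Hochberg method), as did 95.2% of all genes tested. They did not move as a block. Gfra1 was almost silent at E13.5 and rose at each step. Ret, Gfra4, Etv5, Etv4 and Lhx1 fell at E16.5 and rose at P3. By their means Gfra2 and Gfra3 were highest at E16.5 and P0, though the E16.5 and P3 libraries of Gfra3 overlapped. Bcl6b rose at E16.5, fell at P0 and rose again at P3.

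**Figure D1:**
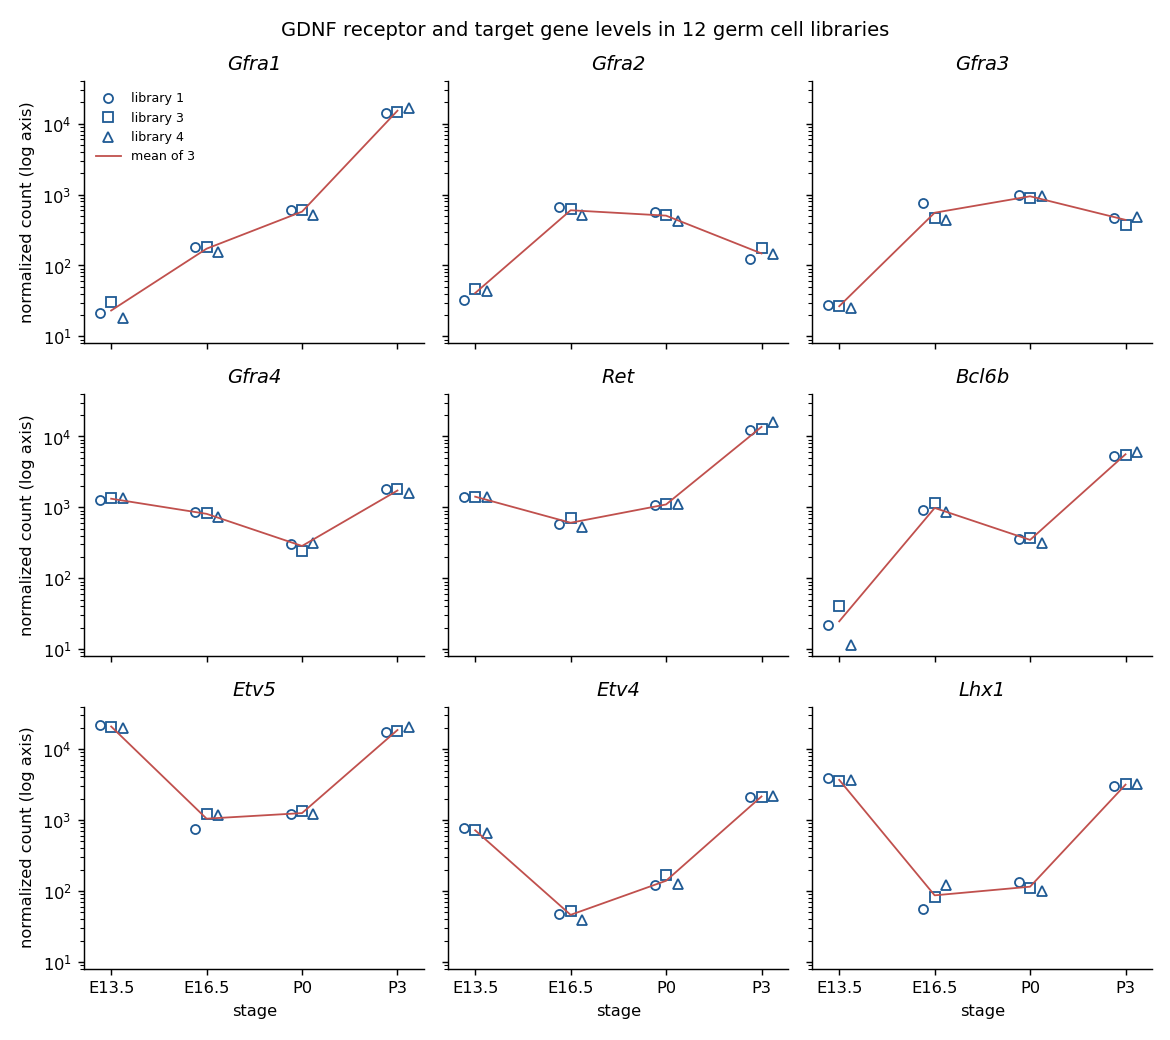
Normalized counts (log axis) of the 9 genes by stage, with 1 marker per library (circle, square and triangle for libraries 1, 3 and 4) and a red line through the mean of 3 libraries. Gfra1 climbs from a mean of 23.2 to 15269, Etv5 and Lhx1 trace a trough at E16.5 and P0, and Gfra2 and Gfra3 peak in that trough.

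Gfra1, which encodes the GDNF co-receptor GFRA1, is on the minus strand of chromosome 19 at chr19:58235604-58455909 in GRCm38. Libraries 1, 3 and 4 of E13.5 held 21.1, 30.5 and 17.9 normalized counts, resting on 17 to 28 reads. They were 180.4, 183 and 154 at E16.5, 598, 611 and 516 at P0, and 14102, 14832 and 16872 at P3. No stage overlapped another, and each later stage was higher. The log2 fold change was 2.88 at E16.5 against E13.5 (SE 0.161, limma adjusted p 4.72e-11), 1.73 at P0 against E16.5 (adjusted p 8.69e-08) and 4.73 at P3 against P0 (adjusted p 2.22e-13). From E13.5 to P3 the mean rose 659-fold. An antisense gene, Gm16277, shares 7.60% of the exon bases of Gfra1 and averaged at most 2.06 normalized counts in any stage.

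Ret, on chromosome 6 (chr6:118151745-118197718, minus strand), encodes the kinase that all 4 co-receptors share. It had a different course. Its counts were 1421, 1414 and 1411 at E13.5, then 582, 704 and 534 at E16.5 and 1070.4, 1113 and 1114 at P0, before 12314, 12664 and 16008 at P3. The fall at E16.5 (log2 fold change -1.23, SE 0.106, adjusted p 1.38e-08), the rise at P0 (0.87, adjusted p 2.44e-06) and the rise at P3 (3.62, adjusted p 6.10e-14) all passed limma's test. P3 was 12.4-fold above P0 and 9.65-fold above E13.5. Ret at P0 was lower than at E13.5 under the scaling of the file (-0.36, adjusted p 0.00431), but the sign turned to 0.11 (adjusted p 0.321) with median-of-ratios factors and to 0.80 (adjusted p 3.74e-06) with equal library totals.

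The ratio of Gfra1 to Ret within a library does not depend on its size factor. Per kilobase of exon, Gfra1 stood at 0.0202 ± 0.00572 of the level of Ret at E13.5 and 0.354 ± 0.0308 at E16.5, then 0.647 ± 0.0648 at P0 and 1.39 ± 0.0760 at P3 (mean ± SD over n = 3 libraries). Ret transcripts were thus present without a matching level of Gfra1 at E13.5, and Gfra1 exceeded Ret only at P3 among these stages. Each step moved the ratio up with no overlap between stages. The log2 ratio rose by 4.11, 0.86 and 1.10 in turn, each with a two-sided exact permutation p of 0.1, the smallest that 3 against 3 libraries allow. Over the 24 ratio tests made, the Benjamini-Hochberg adjusted value for these was 0.12.

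Gfra2 and Gfra3 encode the co-receptors preferred by neurturin and artemin. Gfra2 held 32.7, 46.8 and 43.1 normalized counts at E13.5 and 672, 620.2 and 512 at E16.5, followed by 573, 520.0 and 421 at P0 and 124, 176 and 144 at P3. Gfra3 held 27.4, 27.2 and 25.2, then 754, 474 and 437, then 979, 898 and 963, and finally 465, 372 and 483. For both genes every E13.5 library lay below every other library. At E16.5 against E13.5, Gfra2 rose by 3.85 (SE 0.190, adjusted p 9.26e-12) and Gfra3 by 4.29 (SE 0.180, adjusted p 1.30e-12) on the log2 scale. At P3 against P0, Gfra2 fell by 1.77 (adjusted p 2.69e-07) and Gfra3 fell by 1.11 (adjusted p 3.09e-05) while Gfra1 rose.

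Between E16.5 and P0, Gfra3 rose by 0.81 on the log2 scale (adjusted p 0.000957), whereas Gfra2 did not pass the test (-0.25, 95% interval -0.66 to 0.15, adjusted p 0.259) and its sign turned under 2 of 3 other scalings. Between E16.5 and P3, Gfra3 did not pass either (-0.30, adjusted p 0.148), and without E16.5 library 4 it did (-0.45, adjusted p 0.0495), as with median-of-ratios factors and equal library totals. Without E16.5 library 1 the value of Gfra3 shrank to -0.06 (limma adjusted p 0.751), and without P3 library 3 to -0.18 (adjusted p 0.431). Markers of other cells moved in several ways. The 5 peritubular myoid markers summed to 171 to 224 at E13.5 and 1253 to 1867 at E16.5, then 3699 to 4160.4 at P0 and 797 to 916 at P3, with Tagln at or under 3 reads per library in both embryonic stages. The 5 blood markers were likewise higher in every E16.5 library (1791 to 2513) and P0 library (1599 to 2532) than at E13.5 (66.3 to 443) or P3 (291 to 546). The 4 Schwann cell markers overlapped between E16.5 (120.2 to 168) and both E13.5 (95.7 to 144) and P3 (147 to 299), and were highest at P0 (314 to 476). The 4 macrophage markers were high at E16.5 alone (974 to 1156, against 92.2 to 215 at P0 and 254 to 290 at P3), and the 4 endothelial markers were highest at E13.5 (4343 to 5085, against 477 to 677 at E16.5). The 5 mesonephric duct markers summed to 40.1 to 70.5 at E13.5 and 813 to 913 at E16.5, then 949 to 996 at P0 and 514 to 538 at P3. The 5 Leydig cell markers summed to 571 to 723, 608 to 7681, 1078 to 6106 and 179 to 267 in the same order. The 5 mast cell markers were at 0 at E13.5, 17.2 to 30.9 at E16.5, 1227 to 2628 at P0 and 1.01 to 246 at P3. The part of such cells in the levels of Gfra2 and Gfra3 was not tested.

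The balance between Gfra1 and Gfra2 was reversed at P3. Per kilobase, Gfra1 stood at 0.369 ± 0.0872 of the level of Gfra2 at E13.5 and 0.186 ± 0.0113 at E16.5, then 0.741 ± 0.0607 at P0 and 68.0 ± 11.7 at P3 (mean ± SD over n = 3 libraries). The log2 ratio rose by 6.50 from P0 to P3, with no overlap (exact permutation p 0.1, adjusted 0.12).

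Gfra4, on chromosome 2 (chr2:131039632-131043088, minus strand), encodes the co-receptor preferred by persephin. It held 1266, 1366 and 1343 normalized counts at E13.5 and 865, 828 and 738 at E16.5, followed by 303, 241 and 312 at P0 and 1789, 1817 and 1581 at P3. It was the co-receptor gene with the highest level per kilobase at E13.5, at 612 ± 24.2 against at most 13.3 for the other 3. It fell by 0.71 at E16.5 (SE 0.109, adjusted p 1.47e-05) and fell by 1.51 at P0 (adjusted p 3.95e-09), then rose by 2.60 at P3 (adjusted p 2.14e-12) on the log2 scale. The call at E16.5 was lost with equal library totals (-0.20, adjusted p 0.0836).

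Of the ligand genes, Gdnf stood lower at P3 than at P0, and Nrtn fell, fell and rose as Gfra4 did. Gdnf averaged 10.6 ± 3.59 normalized counts at E13.5 and 74.0 ± 16.6 at E16.5, then 139.7 ± 7.50 at P0 and 26.3 ± 5.94 at P3. It rose at E16.5 (2.70) and at P0 (0.93, adjusted p 0.0168) and fell by 2.39 at P3, where Gfra1 and Ret rose. The summed Sertoli markers given above were highest at P0 as well, and their part in Gdnf was not tested. Nrtn, which encodes neurturin, was the most abundant ligand gene in every stage per kilobase, at 726 at E13.5 and 294 at E16.5, then 142.5 at P0 and 480.3 at P3. It fell by 1.30 and fell by 1.04 in turn and rose by 1.76 at P3. The fall at P0 was lost under another scaling. Artn, for artemin, averaged 9.48 to 29.1 normalized counts, and Pspn, for persephin, had at most 13 reads in any library and was not tested. Gfral, the receptor for GDF15, was at 0 at E13.5 and P3 and reached 19.3 to 44.9 normalized counts at P0.

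**Figure D2:**
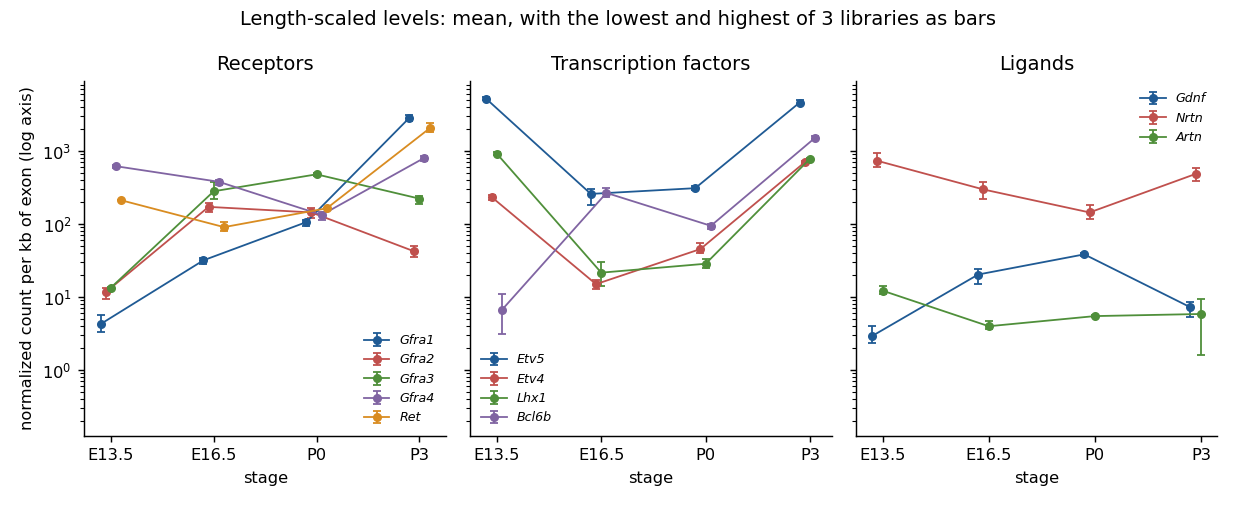
Normalized count per kilobase of exon (log axis) by stage for the receptor genes, the transcription factor genes and 3 ligand genes; points are means of 3 libraries and bars run from the lowest to the highest library. At P3 Gfra1 (2788) and Ret (2020.2) stand above the other receptor genes, and Etv5 leads the factors at E13.5 (5107) and P3 (4555).

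Etv5, on chromosome 16 (chr16:22381309-22439719, minus strand), was the most abundant of the 9 genes per kilobase at E13.5 and at P3. Its normalized counts were 22159.6, 20744 and 19965 at E13.5 and 748, 1229 and 1169.8 at E16.5, followed by 1206, 1361 and 1205 at P0 and 17608, 17958 and 20507 at P3. Libraries thus fell into a high pair of stages and a low pair, with no overlap between the pairs. It fell by 4.35 on the log2 scale at E16.5 (SE 0.137, adjusted p 4.11e-14), a 19.98-fold lower mean, and rose by 3.89 at P3 against P0 (adjusted p 3.15e-13). At P3 against E13.5 the difference did not pass the test (-0.17, 95% interval -0.46 to 0.12, adjusted p 0.289). At P0 against E16.5 it missed the threshold (0.29, adjusted p 0.0750). It passed there without E16.5 library 3 (0.42, adjusted p 0.0181), without E16.5 library 4 (0.39, adjusted p 0.0395) and under all 3 other scalings. Without E16.5 library 1, the lowest of that stage, the value shrank to 0.07 (limma adjusted p 0.528). Of the 50-base words of its transcripts, 24.5% also occur in Gm4798, and how reads that match several genes were counted is not stated. Gm4798 itself averaged at most 37.8 normalized counts in any stage.

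Lhx1, a LIM homeobox gene on chromosome 11 (chr11:84518284-84525535, minus strand), followed almost the same course at a lower level. It held 3873, 3593 and 3634 normalized counts at E13.5 and 56.3, 81.8 and 123 at E16.5, followed by 133, 112 and 100.4 at P0 and 3076, 3220.1 and 3209 at P3. It fell by 5.47 at E16.5 (SE 0.193, adjusted p 1.65e-13), the largest fall among the 9 genes in that comparison, and rose by 4.78 at P3 against P0 (adjusted p 1.40e-12). P3 against E13.5 did not pass (-0.22, 95% interval -0.63 to 0.19, adjusted p 0.315), though every P3 library lay below every E13.5 library. The alternative fits did not all leave this comparison uncalled. At P0 against E16.5 it passed narrowly (0.46, adjusted p 0.0476), but leaving out 1 library at a time, 10 of 12 fits lost the call. Without E16.5 library 1 the value was 0.19 (adjusted p 0.305), and without E16.5 library 4 it was 0.74 (adjusted p 0.000667).

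Over the 12 libraries, which fall into 4 stages, the log2 values of Etv5 and Lhx1 had a Pearson r of 0.9975. Such a likeness is not particular to this pair, as Bmpr1a, outside the 9 genes, had an r of 0.9974 with Etv5. The stretches of DNA before the start sites of Etv5 and Lhx1 are shown because these 2 genes moved together. They come from RefSeq's table for GRCm38.p6, which held start-site windows for 4 of the 9 genes, and only bases outside annotated exons are printed. The Etv5 stretch is chr16:22439720-22439820 and the Lhx1 stretch chr11:84525536-84525659, both on the minus strand. Between stretch and start site lie 149 bases for Etv5 and 1 for Lhx1. Capitals mark matches, on either strand, to a CCAAT box (CCAAT), a GC box (GGGCGG) or a cyclic AMP response element without its last base (TGACGTC).
Etv5: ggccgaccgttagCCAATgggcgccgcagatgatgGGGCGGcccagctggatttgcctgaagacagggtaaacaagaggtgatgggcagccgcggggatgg
Lhx1: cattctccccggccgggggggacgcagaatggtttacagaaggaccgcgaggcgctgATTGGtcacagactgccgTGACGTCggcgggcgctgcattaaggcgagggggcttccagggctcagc
In the whole 300-base windows, the Etv5 window before this start held 3 CCAAT boxes and 3 GC boxes, and the Lhx1 window 1 CCAAT box and 1 TGACGTC. A second Etv5 window, at another start, held 1 CCAAT box and no GC box. An ETS core (CCGGAA) was also searched, and no window of Etv5 or Lhx1 held a match. Among 32851 windows of the same length, 37.4% held a CCAAT box, 35.7% a GC box, 3.21% TGACGTC and 14.9% an ETS core. The motifs do not overlap each other as printed, and a match is a description of letters, not of binding.

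Within a library, Etv5 stood per kilobase at 5.62 ± 0.148 times Lhx1 at E13.5 and 12.5 ± 2.78 times at E16.5, then 10.99 ± 1.735 times at P0 and 5.85 ± 0.431 times at P3 (mean ± SD, n = 3). The ratio was thus higher in the low stages, since Lhx1 fell further, and E13.5 and P3 overlapped. This pair was added after the values had been seen. At E16.5 against E13.5 the log2 ratio rose by 1.11 and at P3 against P0 it fell by 0.89 (exact permutation p 0.1 each, adjusted 0.12).

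Etv4, the ETS relative of Etv5 on chromosome 11 (chr11:101769742-101785371, minus strand), held 764, 736 and 658 normalized counts at E13.5 and 46.8, 52.1 and 39.6 at E16.5, followed by 123, 169.5 and 126 at P0 and 2139.6, 2116 and 2218 at P3. It fell by 3.94 at E16.5 (SE 0.148, adjusted p 3.37e-13), rose by 1.57 at P0 (adjusted p 1.03e-07) and rose by 3.96 at P3 (adjusted p 5.91e-13) on the log2 scale. Unlike Etv5, it was higher at P3 than at E13.5, by 1.59 (adjusted p 5.59e-08). Per kilobase, Etv5 stood at 22.1 ± 0.813 times Etv4 at E13.5 and 17.4 ± 5.14 times at E16.5, then 6.90 ± 0.725 times at P0 and 6.55 ± 0.400 times at P3. Every ratio at E13.5 and E16.5 was above every ratio at P0 and P3. From E16.5 to P0 the log2 ratio fell by 1.28 (exact permutation p 0.1, adjusted 0.12), and from P0 to P3 the stages overlapped (p 0.7).

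**Figure D3:**
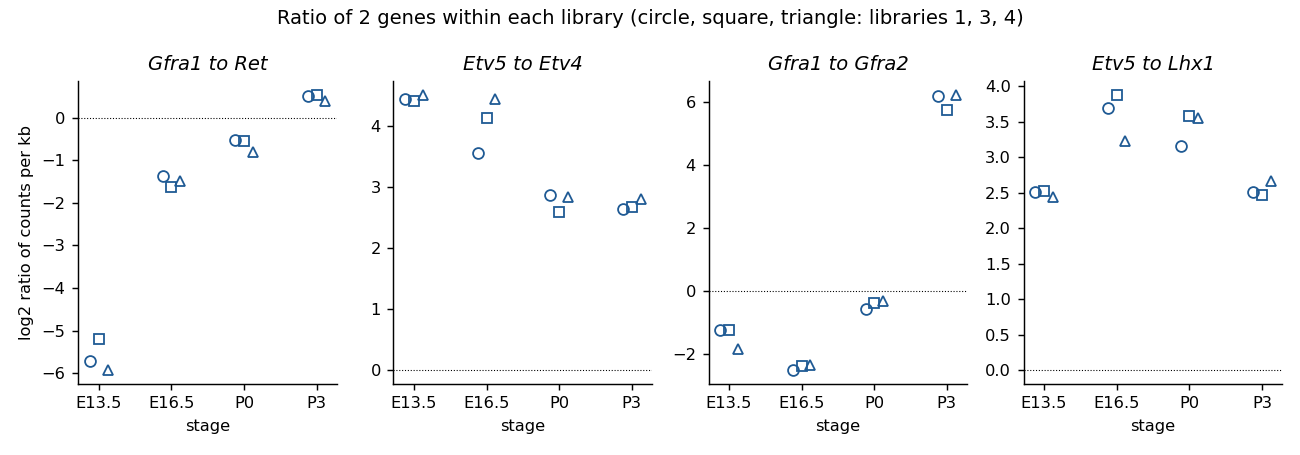
Log2 ratio of normalized counts per kilobase of 2 genes within each library, by stage, with 1 marker per library and a dotted line at equal levels. Gfra1 rises against Ret at every step and against Gfra2 mostly at P3, Etv5 falls against Etv4 between E16.5 and P0, and Etv5 against Lhx1 is highest at E16.5 and P0.

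Bcl6b, which encodes a BTB zinc finger repressor on chromosome 11 (chr11:70224128-70229798, minus strand), differed from the other 3 factors. It was lowest at E13.5, with 22.2, 40.3 and 11.6 normalized counts, and held 924, 1149 and 871 at E16.5, 360.3, 367 and 316 at P0, and 5383, 5484 and 5974 at P3. No stage overlapped another. It rose by 5.41 at E16.5 (SE 0.275, adjusted p 1.38e-11), the largest rise among the 9 genes there, where Etv5, Etv4 and Lhx1 fell. It then fell by 1.49 at P0 (adjusted p 0.000188) and rose by 4.01 at P3 (adjusted p 9.36e-10). From E13.5 to P3 the mean rose 228-fold.

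Counted over the set at E16.5 against E13.5, 4 of 9 genes were higher and 5 lower, where 45.5% of all genes tested were higher and 34.6% lower (80.1% called). No stage overlap was seen for 9 of 9, as for 80.2% of all genes. At P0 against E16.5, 5 were higher and 2 lower, against 27.6% and 33.4% of all genes (61.0% called), and 6 did not overlap (69.5% of all genes). At P3 against P0, 7 were higher and 2 lower, against 40.1% and 36.4% (76.5% called), and 9 did not overlap (81.0%). The median log2 fold change of the 9 was 3.89 in this last comparison and 0.05 over all genes tested. Within a genotype tag, 4 were higher and 5 lower at P0 against E13.5 (45.7% and 40.5% of all genes, 86.1% called), and 9 did not overlap (88.1%). At P3 against E16.5, 7 were higher and 1 lower (34.2% and 35.2%, 69.5% called), and 8 did not overlap (71.6%). At P3 against E13.5, 7 were higher, and Etv5 and Lhx1 did not pass (39.2% of all genes were higher and 31.2% lower, 70.4% called). There 8 did not overlap (71.3%). These comparisons share libraries and are not independent of each other.

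**Figure D4:**
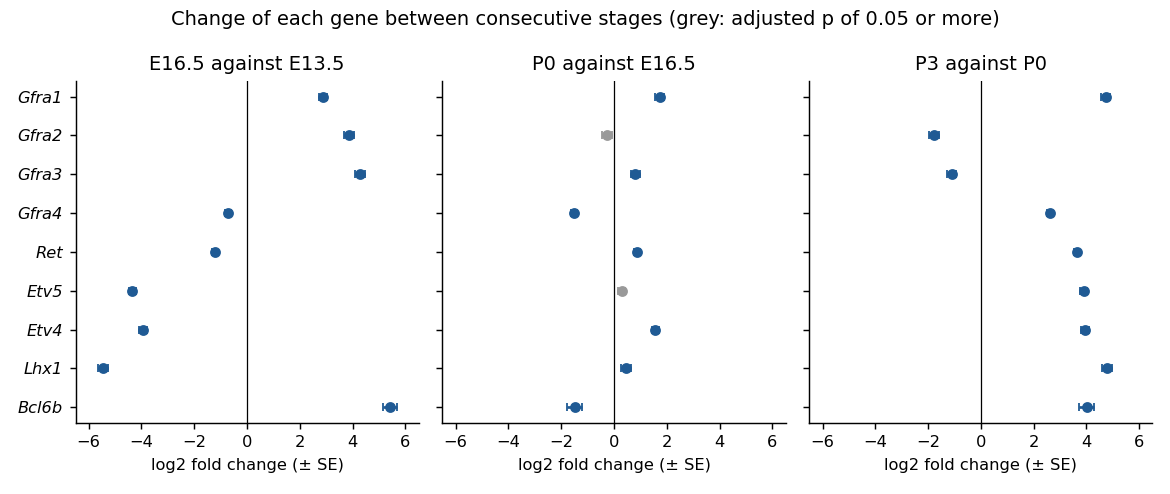
Log2 fold change (points) with its SE (bars) for the 9 genes in the 3 comparisons of consecutive stages, from limma; grey points did not pass the test. At E16.5 the genes split from -5.47 (Lhx1) to 5.41 (Bcl6b), and at P3 against P0 all but Gfra2 and Gfra3 lie between 2.60 and 4.78.

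The scaling of libraries matters for P0. Scaled to equal library totals instead of by the file's size factors, all genes had a median log2 fold change shifted by 0.47 at E16.5 against E13.5, by 0.65 at P0 against E16.5 and by -0.82 at P3 against P0. Of all genes called, the share that was higher then went from 56.8% to 69.1%, from 45.2% to 77.7% and from 52.4% to 26.4% in these comparisons. The rises of Gfra1, Ret, Gfra4, Etv5, Etv4, Lhx1 and Bcl6b at P3 against P0 kept their sign and passed the test under TMM factors, median-of-ratios factors and equal totals. Under these scalings the rise of Gfra1 was 3.89 to 4.56 and that of Ret 2.78 to 3.45.

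By level per kilobase, the order at E13.5 was Etv5, Lhx1, Gfra4, Etv4 and Ret, with no overlap between neighbours, and then Gfra3, Gfra2, Bcl6b and Gfra1, whose neighbours overlapped. At E16.5 the neighbours among Gfra4, Gfra3, Bcl6b, Etv5 and Gfra2 overlapped, above Ret, and Gfra1, Lhx1 and Etv4 were lowest. At P0 Gfra3 led, at 474 ± 21.6, followed by Etv5. At P3 the order was Etv5, Gfra1, Ret and Bcl6b without overlap, with Gfra2 last at 41.8 ± 7.38.

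Other genes of the pathway were read in 5 lists. Over all genes tested, 45.5% were higher and 34.6% lower at E16.5 against E13.5. The shares were 27.6% and 33.4% at P0 against E16.5, and 40.1% and 36.4% at P3 against P0. With equal library totals, 12391 of all 22384 genes were higher and 5530 lower at E16.5 against E13.5. That scaling gave 11989 higher and 3437 lower at P0 against E16.5, and 4573 higher and 12721 lower at P3 against P0. The list of ETS partners and ERK feedback genes numbered 14: 6 ETS factor genes, some of whose proteins ERK phosphorylates, and 8 Sprouty, Spred and Dusp genes, whose products restrain RAS-ERK signalling. At E16.5 against E13.5, 11 fell and 3 rose, with a median of -2.43 against 0.31 over all genes. At P3 against P0, 10 rose and 1 fell, with a median of 1.48 against 0.05. Dusp6, an ERK phosphatase, averaged 5485 ± 197 normalized counts at E13.5 and 475 ± 191 at E16.5, then 1634 ± 399 at P0 and 14528 ± 170.1 at P3. Spry4, a Sprouty inhibitor, averaged 381 ± 39.0, 28.0 ± 14.3, 114 ± 23.1 and 2417 ± 70.4 in the same order, rising by 4.42 at P3 (adjusted p 3.90e-10). Etv1, the remaining member of the Etv4 and Etv5 subfamily, fell by 5.30 at E16.5 and, unlike its relatives, was lower at P3 than at P0 (-2.98, adjusted p 7.39e-12), at 36.1 ± 4.21 against 3903 ± 228 at E13.5. Of this list 10 rose and 3 fell at P0 against E16.5, with a median of 0.60. With equal library totals 11 rose there and the others did not pass, and 8 rose and 3 fell at P3 against P0.

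Of 11 further genes reported to respond to GDNF in cultured spermatogonia, 8 rose and 2 fell at P3 against P0 (40.1% and 36.4% of all genes), with a median of 2.57. Id4, for a helix-loop-helix inhibitor expressed in stem-cell spermatogonia, rose by 3.65, the POU factor gene Pou3f1 by 3.19, the zinc finger factor gene Egr2 by 2.91 and the cyclin gene Ccnd2 by 2.57 (adjusted p at most 7.46e-10). Tspan8, a tetraspanin gene, fell by 1.38 and had its highest mean at E16.5, 2045 ± 123 normalized counts, against 72.6 ± 14.8 at E13.5. Nanos2, a translational repressor of male germ cells, rose by 3.31 but at 108 ± 17.9 stayed under its E13.5 mean of 655 ± 23.5. At E16.5 against E13.5, 6 of the 11 fell and 3 rose (34.6% and 45.5% of all genes, median -0.95). Mycn fell there by 4.98, from 22183 ± 279 to 717 ± 175. At P0 against E16.5, 7 rose and 3 fell (27.6% and 33.4% of all genes, median 0.93), or 8 and 1 with equal library totals.

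Adaptors and kinases of RET signalling (32 genes) went both ways. At E16.5 against E13.5, 19 fell and 10 rose (median -0.46). At P0 against E16.5 there were 12 that fell and 13 that rose (median 0.10). At P3 against P0, 20 rose and 8 fell (median 0.48), but with equal library totals 8 rose and 17 fell. That scaling also gave 13 up and 14 down at E16.5 and 23 up and 2 down at P0. The balance of this list thus depended on the scaling, as did that of all genes given above. Map2k1, which encodes the kinase MEK1 that phosphorylates ERK, rose by 2.39 at P3, and the adaptor gene Shc1 by 2.54. The SRC family gene Fyn averaged 1856 ± 60.8, 2704 ± 81.8, 4613 ± 421 and 15256 ± 80.3 normalized counts over the 4 stages. These 3 genes rose at P3 under every scaling tried. Grb10, a RET-binding adaptor gene, fell by 3.64 there after rising from 54.4 ± 16.2 at E13.5 to 3348 ± 193 at P0. Of the ligands and other receptors, 8 of 9 genes were tested, and 1 rose and 6 fell at P3 against P0 (median -0.65). They numbered 4 higher and 3 lower at E16.5 against E13.5 (median 1.01), with 4 higher and 1 lower at P0 against E16.5 (median 0.58), and with equal library totals 4 higher and 1 lower at the first of these steps and 6 higher at the second. Of 7 genes of RET degradation and trafficking, 4 rose and 3 fell at E16.5 against E13.5 (45.5% and 34.6% of all genes, median 0.63), 4 rose and 3 did not pass at P0 against E16.5 (27.6% of all genes rose, median 0.50). At P3 against P0, 3 rose and 1 fell (40.1% and 36.4%, median -0.09). With equal library totals 1 of these 7 rose and 5 fell in that last comparison. Cbl, a ubiquitin ligase gene for receptor kinases, rose by 1.62 there.

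**Figure D5:**
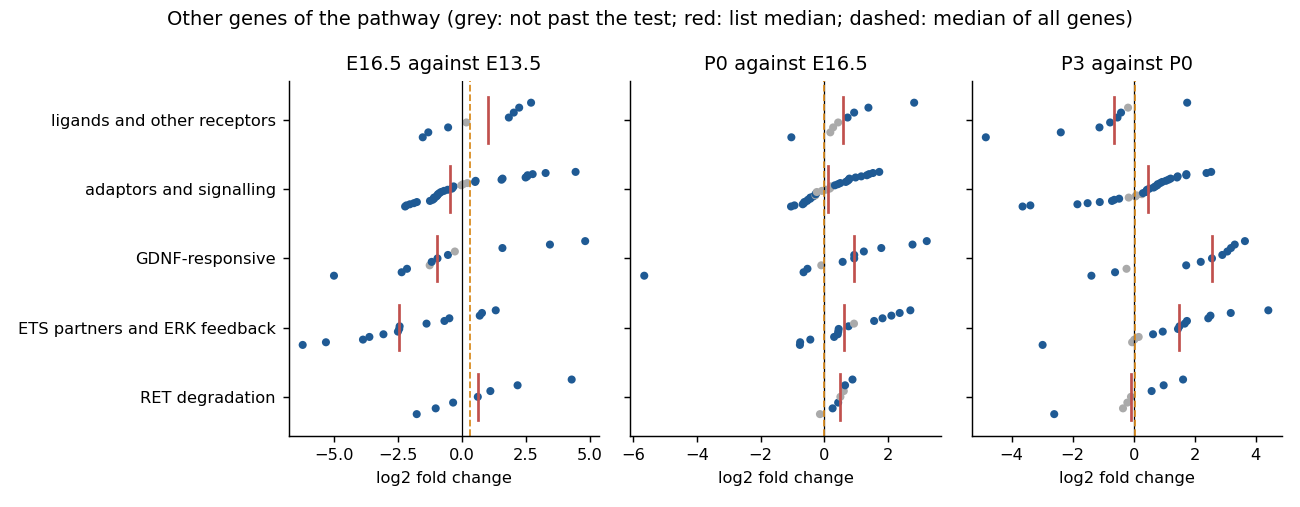
Log2 fold change of each tested gene of 5 pathway lists (1 point per gene, grey where it did not pass limma's test) in the comparisons of consecutive stages, with the list median in red and the median of all genes as a dashed line. The ETS and ERK feedback list has its median at -2.43 at E16.5 and 1.48 at P3, and the GDNF-responsive list at -0.95 and 2.57.

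Apart from the 9 genes themselves, the genes whose log2 values over the 12 libraries were most like Gfra1 were Large2 (Pearson r 0.9948), Tmc6 (0.9945) and Acsf2 (0.9939). Those most like Ret were Map3k11 (0.9959), Pdgfb (0.9942) and Dusp5 (0.9933), the last also in the ETS and ERK feedback list, and those most like Etv5 were Bmpr1a (0.9974), Azin1 (0.9967) and Rbl1 (0.9965). The 12 points share 4 stages and their size factors, so these values describe likeness of stage profiles. Mesonephric duct epithelium, another site of Ret, Lhx1 and Etv5 expression, was read by 5 markers. They summed to 40.1 to 70.5 normalized counts at E13.5, with Pax2 at or under 3 reads per library. At P3 they summed to 514 to 538, with Pax2 and Cdh16 at or under 3 reads. At E16.5 and P0 the sums were higher, at 813 to 996. The part of such cells in the levels of Ret, Lhx1 and Etv5 was not tested.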

How the data were processed

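The authors deposited signal values for 55487 genes in 12 libraries, which are gene read counts divided by 1 size factor per library (RLE, relative log expression), as the authors' name for the table says. Libraries were made with SMART-seq v4 and TruSeq kits, per the labels' protocols. The submitters' processing notes list cutadapt 1.18, HISAT2 2.1.0, featureCounts 1.5.2, DESeq2 1.26.0 and GRCm38. The annotation release, strandedness and treatment of multi-mapping reads are not given in the sources used here. All values (100%) were whole multiples of the smallest value of their library, within a tolerance of 0.001, so reads were recovered. Columns were assigned to stages only. Symbols matched 55141 identifiers, and GENCODE M21 gave positions and exon lengths.

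In R 4.3.3, limma 3.58.1 (trend, all 4 stages in 1 fit) was run on log2(normalized count + 1), with Benjamini-Hochberg adjusted p under 0.05 over 22384 genes; fold changes on this scale understate changes of low genes. The alternatives were 3 scalings, no filter or a mean of 100 or more, pseudocounts of 0.1 and 10, a fit of 2 stages, edgeR 4.0.16, DESeq2 1.42.0, leaving out each library and a block by column number. The scripts were tested on simulated data. Ratios used exact permutation tests (scipy 1.17.1). The gene set, lists, markers and motifs were chosen with earlier results of these data known. Named genes are the 9 genes, listed genes and, for Gfra1, Ret and Etv5, the 3 most alike genes with a stage mean of at least 100; examples within lists were picked after their values were seen. Intervals and floors of 3 reads cover counting error or library spread only, as PCR copies were not marked.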

Additional observations from a re-analysis of the deposited data

How the results depend on the processing

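Blocking was tried on the numbers of the table's column heads (1, 3 and 4), an alternative chosen after seeing the data, since their tie to the replicate numbers of the labels is not known. Over 22384 genes, deviations from the stage means of same-numbered libraries had a Pearson r of -0.0356 to 0.0423 (18 pairs), and a library correlated best with its own number in 9 of 36 cases, so the numbers were not taken to pair the samples. With this replicate block 6 of the 9 genes in place of 7 were called at P0 against E16.5, where Lhx1 had an adjusted p of 0.0620 (limma). No other call among the 9 genes changed, and the counts over all genes moved little (13529 from 13658 there). Of 1242 alternative values for the 54 comparisons of single genes, 1209 kept direction and side of the threshold, 17 lost the call, 10 gained it and 6 turned in sign. Those that turned, with median-of-ratios factors, were Gfra2 at P0 against E16.5 (0.00299) and Ret at P0 against E13.5 (0.11). With equal library totals they were the same 2 comparisons (0.41 and 0.80), and Etv5 (0.16) and Lhx1 (0.11) at P3 against E13.5. The number of the 9 genes called in each comparison stayed within 1.5 times under every alternative run. The log2 ratio of Etv5 to Etv4 at P3 against P0 turned to 0.012 with a pseudocount of 10. With a mean of at least 100, which tests fewer genes, the genes called numbered 11459 (from 17932) for E16.5 against E13.5, 11249 (from 17122) for P3 against P0, 11968 (from 19280) for P0 against E13.5, and 13040 (from 21300) for the 4-stage difference. The low counts of Gfra1 (17 to 28 reads) and Bcl6b (11 to 37 reads) at E13.5 limit the precision of folds against that stage.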
